A study of Homo sapiens with 6 samples.

Results

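The genes described here are 8 components of the Notch pathway: the receptors NOTCH1, NOTCH2 and NOTCH3, the ligand JAG1, the nuclear proteins RBPJ and MAML2, and the target genes HES1 and HEY1. They were chosen by name from the 61806 genes of the table, with earlier results of these data known, and all 8 had enough counts to be tested. RNA was sequenced in 6 libraries of wild-type HFF cells, a culture of human foreskin fibroblasts from a cell bank, all exposed to ultraviolet B (UVB) at 40 mJ per cm2. In the UVB group, 3 libraries came from irradiated cells cultured for 48 h in vehicle. In the UVB + sauchinone group, 3 libraries came from irradiated cells cultured for 48 h with 10 µM sauchinone, a plant lignan. The protocols describe addition of the compound after irradiation and also a version with pretreatment, without saying which version gave these libraries, and unirradiated cells were not analysed here.

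Notch receptors are single-pass membrane proteins that are switched on by ligands of the Jagged and Delta families on a neighbouring cell. Ligand binding exposes the receptor to cleavage by ADAM metalloproteases and then by gamma-secretase, and the released intracellular domain enters the nucleus, where it binds the DNA-binding protein RBPJ and a coactivator of the Mastermind family. Classical target genes encode HES and HEY proteins, which are transcriptional repressors. In skin the pathway is known for its part in keratinocyte differentiation, and NOTCH3 is known as a receptor of pericytes and vascular smooth muscle.

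With sauchinone, NOTCH1, JAG1, HES1 and HEY1 were higher and NOTCH3 and MAML2 were lower, while NOTCH2 and RBPJ did not pass the test. JAG1 passed in only 6 of 16 alternative analyses. NOTCH2 and RBPJ were called higher when a trend of counts with genomic span or exonic size was removed. Levels used to compare the groups are in CPM, counts brought to a common library size with TMM factors, and are given as mean ± SD over 3 libraries. NOTCH1 rose 1.75-fold, from 9.07 ± 0.958 to 15.9 ± 1.91 CPM, and NOTCH3 fell 1.62-fold, from 32.2 ± 1.53 to 19.8 ± 2.3 CPM. MAML2, a coactivator of the nuclear complex, fell 2.75-fold, from 62.1 ± 6.31 to 22.6 ± 2.3 CPM, and 1.44-fold with the span trend removed. The target genes HES1 and HEY1 rose 1.81-fold and 1.74-fold. At a threshold of 0.05 for edgeR's quasi-likelihood p, adjusted by Benjamini-Hochberg over every gene tested, 4 of the 8 genes were higher and 2 were lower. Over the alternative analyses 3 to 6 were higher and 2 lower. Among all 15704 genes tested, 24.7% were higher and 24.9% were lower, 49.6% in all, so calls in both directions were common in this comparison. The groups did not overlap in 7 of the 8 genes, against 57.1% of all genes tested.

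Total counts per library were 20984851 to 23076388, and 3 counts corresponded to 0.130 to 0.143 CPM before TMM scaling, a floor that covers counting error only. The labels do not state that replicates are separate cultures, so the p-values reflect the spread of these libraries alone, part or all of which may be technical. All libraries carry 1 batch label. UVB replicate 3 differed more from the other UVB libraries (chi-square per gene of 8.98 and 19.3) than UVB replicates 1 and 2 from each other (4.93). Fibroblast markers were abundant, with a summed level of 19606.1 to 21422.1 CPM in the UVB libraries and 13760.3 to 14046.6 CPM in the UVB + sauchinone libraries, and 10 of 12 were lower with sauchinone, beside 24.9% of all genes tested. Marker lists of other skin cells were low, with summed levels over all libraries of 4.62 to 10.4 CPM for endothelium (mostly TEK and EGFL7), 13.2 to 15.8 CPM for keratinocytes (mostly KRT10), 1.47 to 2.55 CPM for melanocytes and 3.31 to 4.67 CPM for immune cells. CDH5 and KDR of endothelium, KRT5, KRT1 and DSG3 of keratinocytes, DCT of melanocytes and CD3E of lymphocytes had no count in any library. In bulk RNA, fewer cells of a type and less RNA per cell cannot be told apart.

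RBPJ binds DNA at sites with the core TGGGAA, and promoters are shown because HES1 is a direct target whose regulation through such sites is well known. RefSeq promoter entries (GRCh38.p14, 250 bases before to 50 after a start site) matched 7 of the 8 genes, with 11 entries in all. HEY1 had no entry. The letters TGGGAA were searched on both strands, so that TTCCCA on the printed strand is a match on the other strand. HES1 held 2 matches, at 84 and 70 bases before the start site. Of the 5 RBPJ entries 1 held 2 matches, and the entries of NOTCH1, NOTCH2, NOTCH3, JAG1 and MAML2 held none. For comparison, 24.0% of all 35116 promoter entries held at least 1 match and 3.8% held 2 or more. The longer form GTGGGAA, which contains TGGGAA, was present once in HES1 and 2 times in the matching RBPJ entry. At least 1 was held by 6.25% of all entries, and 2 or more by 0.248%. The HES1 promoter up to its start site (chr3:194135898-194136147, plus strand), the matching RBPJ stretch (chr4:26319611-26319699, plus strand) and stretches of the related target genes HES4 (chr1:1000148-1000193, minus strand) and HEYL (chr1:39639717-39639841, minus strand) follow, 5′ to 3′ on the strand of the gene, with TGGGAA or TTCCCA in capitals.
HES1: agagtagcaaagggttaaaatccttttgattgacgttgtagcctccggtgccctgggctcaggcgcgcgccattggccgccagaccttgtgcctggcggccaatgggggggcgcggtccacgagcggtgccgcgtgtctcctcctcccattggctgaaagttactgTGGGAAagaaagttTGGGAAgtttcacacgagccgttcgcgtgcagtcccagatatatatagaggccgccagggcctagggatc
HES4: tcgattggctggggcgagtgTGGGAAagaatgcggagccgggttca
HEYL: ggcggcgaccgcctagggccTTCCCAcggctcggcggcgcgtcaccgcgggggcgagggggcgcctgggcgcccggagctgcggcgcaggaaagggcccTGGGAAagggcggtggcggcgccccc
RBPJ: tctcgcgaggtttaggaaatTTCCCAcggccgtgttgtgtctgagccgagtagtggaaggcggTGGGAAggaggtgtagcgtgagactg
The HES4 match lay 76 bases before its start site. HES4 and HEYL are shown as examples with a match. The entries of HES5 and HEY2 held 2 matches each, both in the longer form, and those of HES2, HES6, HES7 and NRARP held none. A match is a run of letters and not a measured binding site.

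Levels of different genes were compared per exonic length, on the scale of the deposited FPKM values (mean ± SD, n = 3). In the UVB group NOTCH2 was highest at 23.5 ± 0.231 FPKM, followed by RBPJ at 11.7 ± 1.44, MAML2 at 8.57 ± 0.878, NOTCH3 at 3.36 ± 0.15, JAG1 at 2.14 ± 0.0924, HES1 at 1.57 ± 0.327, NOTCH1 at 0.713 ± 0.0737 and HEY1 at 0.433 ± 0.0306. No 2 neighbours in this order had overlapping libraries. In the UVB + sauchinone group NOTCH2 and RBPJ again led, at 25.7 ± 1.01 and 11.7 ± 0.231 FPKM. MAML2 at 3.21 ± 0.35, HES1 at 2.92 ± 0.285 and JAG1 at 2.63 ± 0.0551 FPKM were next, and MAML2 overlapped HES1, and HES1 overlapped JAG1, between libraries. NOTCH3 at 2.13 ± 0.252, NOTCH1 at 1.29 ± 0.163 and HEY1 at 0.783 ± 0.14 FPKM came last, without overlap between neighbours. The table's exonic size sums all annotated exons and equals the whole span of HEY1, 5487 bases. The principal GENCODE release 29 transcript has 2293 bases for HEY1 and 5990 for RBPJ, against 15311 for RBPJ in the table. With that length RBPJ reached 29.9 ± 3.68 and HEY1 1.04 ± 0.0725 in the UVB group, so HEY1 then stood beside NOTCH1 at 0.958 ± 0.0954. In the UVB + sauchinone group JAG1 was then at 4.12 ± 0.0873, HES1 at 3.81 ± 0.368 and MAML2 at 3.22 ± 0.35, the reverse of their order above. HEY1 at 1.88 ± 0.328 again stood beside NOTCH1, at 1.73 ± 0.217.

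**Figure D1:**
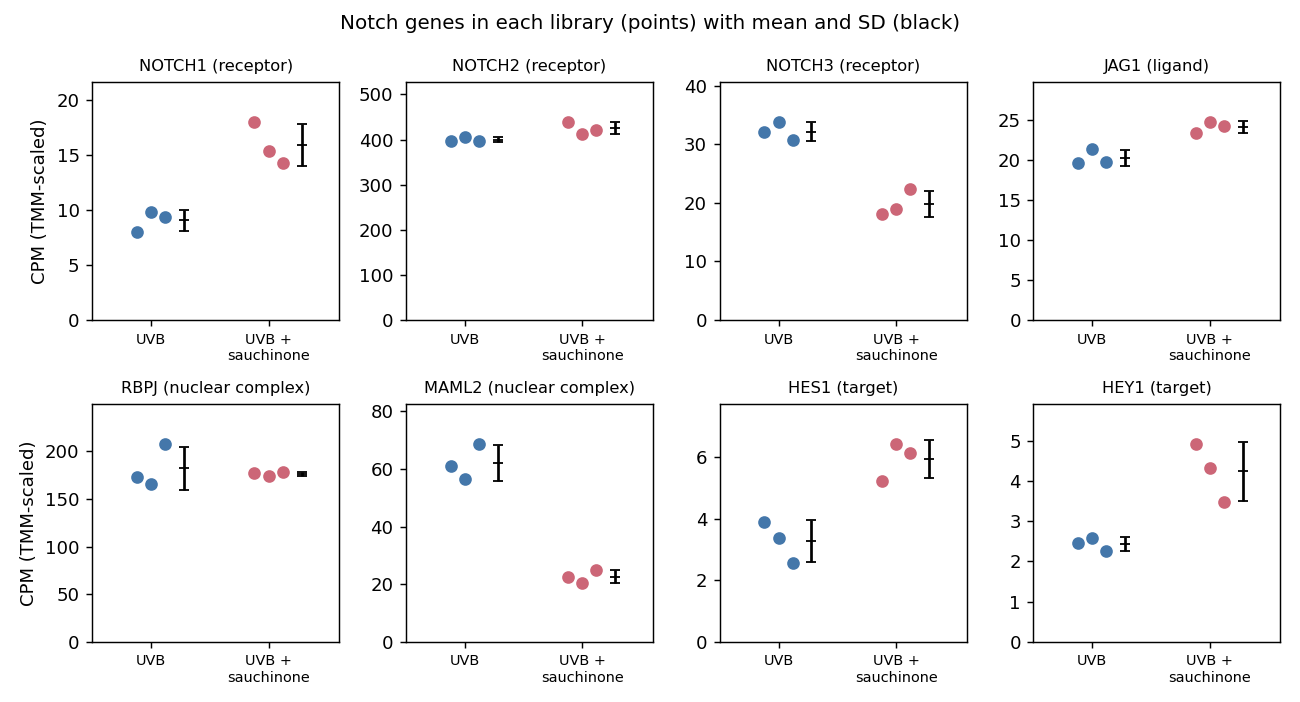
Level in TMM-scaled CPM (vertical axes, each from 0) of the 8 Notch genes in the 3 UVB libraries and the 3 UVB + sauchinone libraries (points, replicates 1 to 3 from left to right), with mean and SD in black. The groups overlap in RBPJ alone, where UVB replicate 3 at 208 CPM stands above the other libraries.

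The receptors moved in different directions. NOTCH1 (ENSG00000148400, chromosome 9 at 136494433 to 136546048, minus strand, GRCh38) was at 7.99, 9.82 and 9.4 CPM in UVB replicates 1, 2 and 3 and at 18.0, 15.4 and 14.3 CPM in UVB + sauchinone replicates 1, 2 and 3. Each library with sauchinone lay above each library without it, and the log2 fold change was 0.81 ± 0.13 (SE; edgeR adjusted p = 2.6e-05). NOTCH3 (ENSG00000074181, chromosome 19 at 15159038 to 15200995, minus strand) was at 32.0, 33.8 and 30.7 CPM in the UVB libraries and at 18.1, 18.9 and 22.4 CPM in the UVB + sauchinone libraries. The groups did not overlap, and the log2 fold change of NOTCH3 was −0.70 ± 0.1 (edgeR adjusted p = 8.2e-06). These receptor genes have similar spans, 51.6 kb for NOTCH1 and 42.0 kb for NOTCH3.

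NOTCH2 (ENSG00000134250, chromosome 1 at 119911553 to 120100779, minus strand) was the predominant receptor RNA in every library. Its level was 397, 406 and 396 CPM in the UVB libraries and 439, 413 and 422 CPM in the UVB + sauchinone libraries. All libraries with sauchinone were higher, by a small margin, and the log2 fold change of 0.09 ± 0.066 did not pass (edgeR adjusted p = 0.29). The approximate 95% interval of the ratio was 0.971 to 1.16. NOTCH2 is uncertain because near-identical partial copies, the NOTCH2NL genes, can share its reads. The counts of NOTCH2NLA, NOTCH2NLB, NOTCH2NLC and NOTCH2NLR together came to 8.77% to 10.2% of the NOTCH2 count in the UVB libraries and 5.96% to 6.94% in the UVB + sauchinone libraries. Of these copies NOTCH2NLB, NOTCH2NLA and NOTCH2NLC fell, with log2 fold changes of −0.56, −0.43 and −0.38 (edgeR adjusted p = 0.00077, 0.011 and 0.049). NOTCH2NLR was at −0.05 and did not pass. With the trend of counts with genomic span removed, NOTCH2NLA and NOTCH2NLC were at −0.29 and −0.24 and no longer passed (edgeR adjusted p = 0.086 and 0.21). The sum of NOTCH2 and its copies was 438 ± 3.8 CPM without and 452 ± 11.8 CPM with sauchinone. NOTCH4, known mainly from endothelium, had 1 to 21 counts per library and was not tested.

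Within a library, ratios of receptors do not depend on the scaling between libraries. The ratio of NOTCH3 to NOTCH1 on the FPKM scale was 5.34, 4.58 and 4.35 in the UVB libraries and 1.34, 1.64 and 2.09 in the UVB + sauchinone libraries. NOTCH3 thus exceeded NOTCH1 in all 6 libraries, by a smaller factor with sauchinone, and the groups did not overlap. A two-sided exact permutation test gave p = 0.1, the smallest value that 3 against 3 libraries allow. Of the summed FPKM of the 3 receptors, NOTCH3 made up 12.2% ± 0.379 in UVB and 7.33% ± 0.91 in UVB + sauchinone (SD, n = 3). NOTCH1 made up 2.58% ± 0.245 and 4.41% ± 0.443, and NOTCH2 made up 85.2% ± 0.429 and 88.3% ± 0.477.

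**Figure D2:**
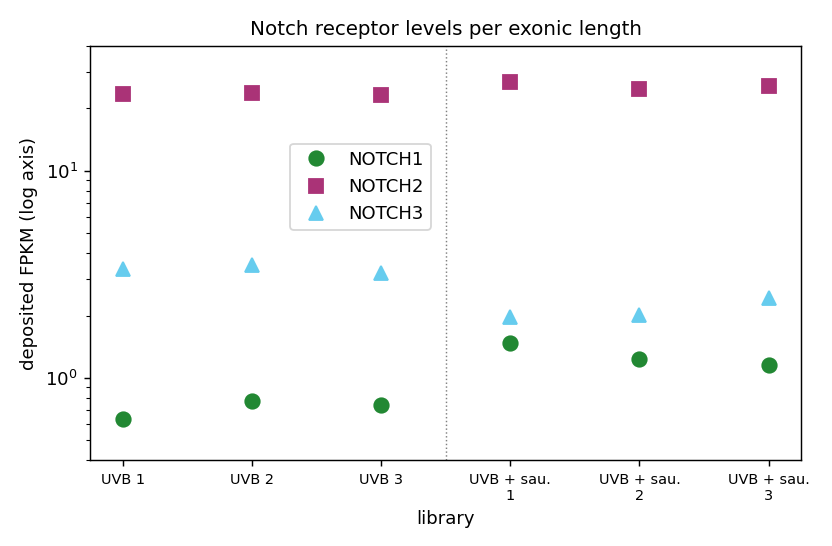
Deposited FPKM of NOTCH1, NOTCH2 and NOTCH3 (vertical log axis) in each of the 6 libraries (horizontal axis; sau., sauchinone). NOTCH2 lies between 23.25 and 26.79 FPKM throughout, and the gap between NOTCH3 and NOTCH1 is narrower in the UVB + sauchinone libraries.

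JAG1 (ENSG00000101384, chromosome 20 at 10637684 to 10673999, minus strand), which encodes the ligand Jagged1, was at 19.6, 21.4 and 19.8 CPM in the UVB libraries and 23.4, 24.8 and 24.3 CPM in the UVB + sauchinone libraries. The groups did not overlap, but the difference was small, 0.25 ± 0.1 as log2 fold change (SE; edgeR adjusted p = 0.042). The call was lost in 5 of the 6 analyses that left out a library. Without UVB replicates 1 or 3 the log2 fold change was 0.23 and 0.23 (edgeR adjusted p = 0.16 and 0.065), and without UVB + sauchinone replicates 1, 2 or 3 it was 0.28, 0.23 and 0.25 (edgeR adjusted p = 0.071, 0.11 and 0.096). Over all 16 alternatives the adjusted p ran from 0.0025 to 0.16. Of the other Jagged and Delta ligands, none of 3 tested genes passed, beside 49.6% of all genes tested. Their counts were low, and with SEs of 0.33 to 0.5 small changes could be missed. DLL3 and DLL1 had log2 fold changes of 0.29 ± 0.5 and 0.09 ± 0.33, with mean levels of 0.42 and 1.27 CPM in the UVB group. JAG1 was the only ligand above 2 CPM in either group, and the atypical ligand gene DLK2 was at 0.675 and 1.1 CPM and did not pass (edgeR adjusted p = 0.14).

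Of 5 tested genes that mature the receptor, 3 were higher and 1 lower, beside 24.7% and 24.9% of all genes tested. FURIN, the convertase that makes the first cut in the receptor precursor, rose by 0.40 ± 0.09 on the log2 scale. POFUT1, which adds O-fucose to the receptor's extracellular repeats, rose by 0.29 ± 0.075. LFNG, a Fringe glycosyltransferase that extends this fucose, rose by 0.78 ± 0.21, and its relative RFNG fell by 0.32 ± 0.13 on the log2 scale (edgeR adjusted p = 0.0037 and 0.047). Both were named after their values were seen.

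Among the shedding and gamma-secretase genes, 2 of 8 rose, 1 fell and 5 did not pass, beside 24.7% higher and 24.9% lower among all genes tested. ADAM10, the main sheddase of ligand-bound Notch, was at 237, 209 and 289 CPM in the UVB libraries and 145, 154 and 153 CPM in the UVB + sauchinone libraries. Every UVB library was higher, with UVB replicate 3 highest, and ADAM10 fell by 0.70 ± 0.091 on the log2 scale (edgeR adjusted p = 1.3e-06). APH1A, a gamma-secretase subunit named after its value was seen, rose by 0.23 ± 0.089. When a trend of counts with genomic span was removed, the fall of ADAM10 shrank to 0.24 (adjusted p = 0.017) and APH1A was at 0.0064, no longer called (edgeR adjusted p = 0.96).

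In the nuclear complex, MAML2 fell and RBPJ did not pass the test. RBPJ (ENSG00000168214, chromosome 4 at 26163455 to 26435131, plus strand), which carries the complex on DNA, was at 173, 166 and 208 CPM in the UVB libraries and 177, 174 and 178 CPM in the UVB + sauchinone libraries. UVB replicate 3 was the highest library and the groups overlapped, and the log2 fold change was −0.05 ± 0.082 (edgeR adjusted p = 0.65). The approximate 95% interval of the ratio was 0.865 to 1.08. Without UVB replicate 3 the log2 fold change was 0.05 (edgeR adjusted p = 0.53).

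MAML2 (ENSG00000184384, chromosome 11 at 95976598 to 96343195, minus strand) was at 61.0, 56.4 and 68.8 CPM in the UVB libraries and 22.5, 20.3 and 24.9 CPM in the UVB + sauchinone libraries. The lowest UVB library was more than 2 times the highest library with sauchinone, and the log2 fold change was −1.46 with an SE of 0.1 (edgeR adjusted p = 8.2e-11). With the trend of counts with genomic span removed, the log2 fold change of MAML2 was −0.53 (edgeR adjusted p = 4.3e-05). Within libraries the ratio of RBPJ to MAML2 on the FPKM scale was 1.32, 1.37 and 1.41 in UVB and 3.66, 3.99 and 3.32 in UVB + sauchinone. The size of this ratio depends on the length used, since per principal transcript RBPJ was at 29.9 and MAML2 at 8.59 in the UVB group, while its change between the groups does not.

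The Mastermind paralogs and their partners were divided. MAML3, which spans 437 kb, had 41, 49 and 53 counts in the UVB libraries and 12, 19 and 10 in the UVB + sauchinone libraries. It reached the level of the low-count filter in 3 UVB and 2 UVB + sauchinone libraries. MAML3 was thus tested through the group in which it is high, and no fold change or p is given for it. MAML1 rose by 0.45 ± 0.094, from 27.7 ± 1.6 to 37.7 ± 1.81 CPM. Of the acetyltransferases that act with the complex, KAT2B fell by 1.40 ± 0.12 on the log2 scale, from 24.4, 23.9 and 30.5 CPM to 9.31, 10.4 and 10.2 CPM, and EP300 rose by 0.38 ± 0.078. The edgeR adjusted p-values were 0.00038 for MAML1, 2.9e-09 for KAT2B and 0.00031 for EP300. MAML1 and EP300 were named after their values were seen. Of 7 corepressor genes 3 were higher and 3 lower, beside 24.7% and 24.9% of all genes tested. TLE3, a Groucho-family corepressor that HES proteins recruit, rose by 1.22 ± 0.14 on the log2 scale, from 7.48 ± 0.611 to 17.4 ± 2.98 CPM. NCOR1, a nuclear receptor corepressor, fell by 0.61 ± 0.076, a call that was lost when the trend with span was removed (log2 fold change −0.05, edgeR adjusted p = 0.57).

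Both target genes rose, beside 24.7% higher among all genes tested. HES1 (ENSG00000114315, chromosome 3 at 194136148 to 194138732, plus strand), the repressor whose promoter is shown above, had 81, 73 and 58 counts in the UVB libraries and 116, 149 and 143 in the UVB + sauchinone libraries, or 3.9, 3.38 and 2.56 CPM against 5.24, 6.44 and 6.13 CPM. The groups did not overlap, UVB replicate 3 was lowest, and the log2 fold change was 0.86 ± 0.19 (SE; edgeR adjusted p = 0.00069). HEY1 (ENSG00000164683, chromosome 8 at 79762371 to 79767857, minus strand), a related repressor, had 51, 56 and 51 counts in the UVB libraries and 109, 100 and 81 in the UVB + sauchinone libraries. These were 2.46, 2.59 and 2.25 CPM against 4.93, 4.32 and 3.47 CPM, again without overlap, and the log2 fold change was 0.80 ± 0.21 (edgeR adjusted p = 0.003). The ratio of HES1 to HEY1 on the FPKM scale was 3.58 ± 0.608 in UVB and 3.84 ± 0.941 in UVB + sauchinone, with overlap between the groups.

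Other genes of the HES and HEY families and NRARP, a feedback inhibitor of the complex, were close to the floor, and only 2 of these 8 genes were tested. HES2 had 11, 2 and 5 counts in the UVB libraries and 32, 39 and 28 in the UVB + sauchinone libraries, and its level was low in both groups, at 0.281 ± 0.225 and 1.44 ± 0.243 CPM. Only 1 UVB library reached the level of the low-count filter, so HES2 was tested through the group in which it is high, and no fold change or p is given for it. HES6 was at 0.421 and 0.806 CPM, was not called, and reached the filter level in 2 UVB and 3 UVB + sauchinone libraries. HES6 was thus also tested through the group in which it is high, and no fold change or p is given for it. HEYL had 6, 2 and 4 counts in the UVB libraries and 6, 26 and 14 with sauchinone, and NRARP had 2, 0 and 8 against 5, 15 and 7. Both overlapped between the groups and were not tested.

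Genes of endocytosis and ubiquitin ligation, which tune receptors and ligands at the cell surface, comprised 11 tested genes, of which 5 rose and 4 fell, beside 24.7% and 24.9% of all genes tested. DTX2, a Deltex ubiquitin ligase, rose by 1.15 ± 0.18 on the log2 scale, from 3.2 ± 0.744 to 7.1 ± 0.253 CPM (n = 3; edgeR adjusted p = 1.9e-05). MIB2, a Mind bomb ligase that promotes ligand endocytosis, rose by 0.77 ± 0.13 (edgeR adjusted p = 5.1e-05). With the trend with span removed, the falls of ITCH, NUMB and AAK1 did not hold. ITCH was at 0.088, and NUMB and AAK1 were higher, at 0.22 and 0.30 (edgeR adjusted p = 0.37, 0.018 and 0.0015). The rise of DTX3 was lost (0.19, edgeR adjusted p = 0.22). MIB1 and FBXW7, not called before, were then higher, at 0.31 and 0.81 (edgeR adjusted p = 0.0024 and 9e-07). DTX1 had no count in any library, which allows up to 0.130 to 0.143 CPM per library. Over the whole list of 58 further pathway genes, 46 were tested, 16 rose, 14 fell and 16 did not pass, with a median log2 fold change of 0.12. The shares of rises and falls can be read against 24.7% and 24.9% of all genes tested, whose median was 0.0071. The 14 falls include 3 NOTCH2NL copies and MAML3, and the rises include HES2. MAML3 and HES2, and HES6 among the genes that did not pass, were each tested through the group in which they are high.

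**Figure D3:**
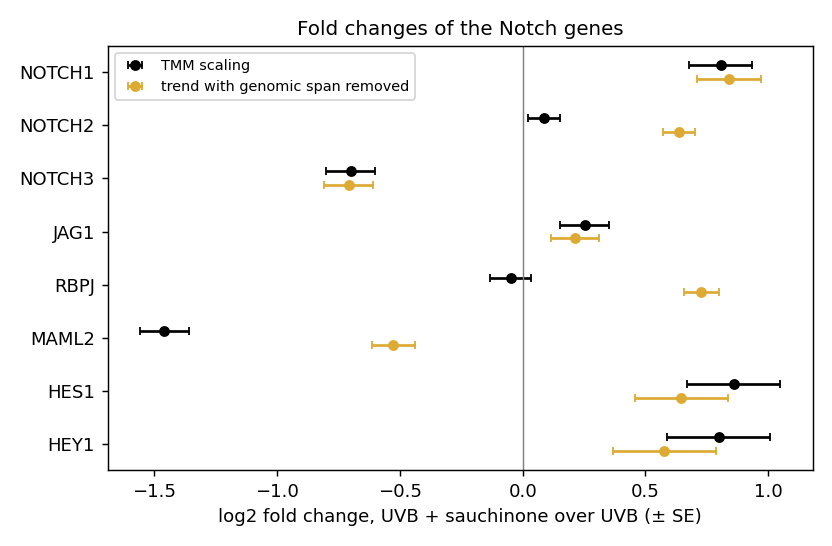
Log2 fold change of the 8 Notch genes, UVB + sauchinone over UVB (horizontal axis, bars ± SE), from edgeR with TMM scaling (black) and after removal of the trend with genomic span (yellow). NOTCH1, NOTCH3 and JAG1 move by less than their SE between the fits, while MAML2, NOTCH2 and RBPJ shift upward.

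The fold changes of MAML2, RBPJ and NOTCH2 moved most when a trend with genomic span was removed. With all tested genes ranked by span into 5 equal groups, the longest group covered 88.7 to 2242 kb. Its median log2 fold change was −0.44, with 58.5% of genes lower and 7.99% higher. MAML2 (366.6 kb), RBPJ (271.7 kb) and NOTCH2 (189.2 kb) belong to it. With a smooth trend with span removed in each library, MAML2 was 1.44-fold lower, at −0.53 on the log2 scale (edgeR adjusted p = 4.3e-05). On the same scale NOTCH2 was 1.56-fold higher, at 0.64, and RBPJ 1.66-fold higher, at 0.73 (edgeR adjusted p = 5e-08 and 2.8e-08). With TMM scaling alone neither was called, so these rises are relative to genes of like span. HES1 and HEY1 span 2.58 and 5.49 kb and lie in the shortest group, in which 29.4% of genes were higher and 8.12% lower. Their log2 fold changes became 0.65 and 0.58 and still passed (edgeR adjusted p = 0.0074 and 0.026). NOTCH1 at 0.84 and NOTCH3 at −0.71 were nearly the same as with TMM scaling alone. The part of span in these results was not tested further.

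**Figure D4:**
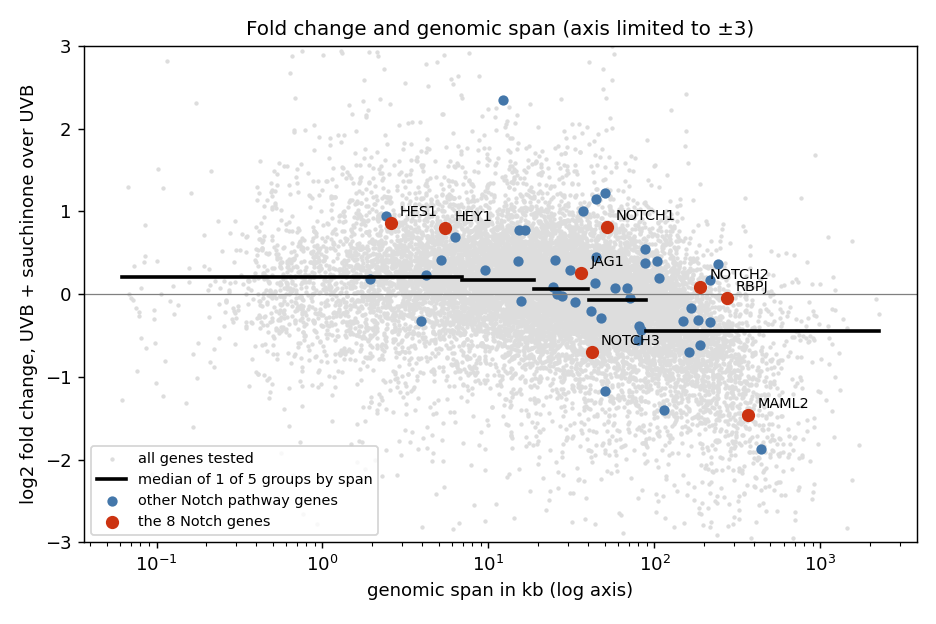
Log2 fold change, UVB + sauchinone over UVB (vertical axis), against genomic span in kb (horizontal log axis) for all genes tested (grey), other Notch pathway genes (blue) and the 8 Notch genes (red), with the medians of 5 equal groups of genes ranked by span as black lines. The medians fall from 0.20 in the shortest group to −0.44 in the longest, MAML2 lies below that line and NOTCH2 and RBPJ above it, and 54 genes lie outside the plotted range.

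Markers of pericytes and smooth muscle are given here because NOTCH3 is best known in these cells. Of 10 such genes 9 were tested, 6 fell and none rose, beside 24.9% lower among all genes tested. Their median log2 fold change was −0.63, and that of the 12 fibroblast markers was −0.72. The summed level of the list was 521 to 591 CPM in the UVB libraries and 316 to 333 CPM in the UVB + sauchinone libraries. Log2 fold changes were −2.58 for RGS5, −1.93 for LMOD1, −0.93 for ABCC9, −0.79 for CSPG4, −0.63 for ACTA2 and −0.43 for CNN1. KCNJ8 at 0.06, MCAM at −0.20 and MYH11 at 0.48 did not pass. The smooth muscle markers MYH11 and DES were near the floor, with 1 to 18 and 4 to 18 counts per library. PDGFRB, a receptor shared by fibroblasts and pericytes, fell by 0.58 ± 0.076 on the log2 scale. The part of these markers in the fall of NOTCH3 was not tested.

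The genes most like NOTCH3, JAG1 and HES1 across the 6 libraries were ranked by Pearson's r of log2 CPM, as a description. NUP37, VPS35L and PPM1H were closest to NOTCH3 (r = 0.998, 0.998 and 0.997). PABPC4, PAQR7 and LINC01679 were closest to JAG1 (r = 0.999, 0.999 and 0.997), and TRIM35, SF3A3 and CACFD1 were closest to HES1 (r = 0.996, 0.995 and 0.995). The libraries form 2 groups and many genes differ between them, so high values are common: 966, 760 and 487 of 15703 genes had r above 0.95 with NOTCH3, JAG1 and HES1. Genes that overlap the 8 Notch genes in the table had almost no counts. Counter and strand setting are not given, so this does not show that these genes are silent. There were 8 of them, on either strand, and none had more than 3 counts over all libraries.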

How the data were processed

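The authors deposited 1 table of 61806 genes with raw counts, which were not normalised, and FPKM values per gene and library, together with exonic sizes, coordinates and gene symbols. The build was GRCh38, per the submitters' processing notes. Aligner, counter, annotation release and strand setting: not given in the sources used here. The deposited FPKM could be recomputed from counts, exonic sizes and library totals for 100.0% of values within 0.006. Every row names a gene. The labels name the column of each sample.

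The test of the counts used edgeR 4.0.16 in R 4.3.3: filterByExpr (15704 genes), TMM, and a two-sided quasi-likelihood test without covariates, Benjamini-Hochberg adjusted over all genes tested. Standard errors were derived from F statistics, and approximate 95% intervals from these. The test was run on simulated data with far fewer changed genes and no trend with span, so its error rates here are not known from that. Span runs from gene start to end in the table. Alternatives used DESeq2 1.42.0, limma 3.58.1 and other scalings, filters and offsets; the length of the principal transcript was added after seeing the data. The 8 genes, the lists and the tests were chosen with earlier results of these data known. Named were the 8 genes, the 2 genes of smallest p in each pathway role, NOTCH2 copies, tested pericyte and smooth muscle markers, the 3 genes most like NOTCH3, JAG1 and HES1, and, after their values were seen, genes behind small counts.
Items that this rule would name but that are withheld from the text are not reported here.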

Additional observations from a re-analysis of the deposited data

How the results depend on the processing

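NOTCH1, NOTCH3, MAML2, HES1 and HEY1 kept their direction and stayed past the threshold in all 16 alternatives. Leaving out each library in turn gave log2 fold changes of 0.71 to 0.88 for NOTCH1, −0.80 to −0.64 for NOTCH3, −1.54 to −1.38 for MAML2, 0.70 to 1.00 for HES1 and 0.68 to 0.93 for HEY1. JAG1 passed in 6 of 16. It did not pass in edgeR with upper-quartile scaling, without a filter on low counts or with the span trend removed (0.24, 0.25 and 0.22, edgeR adjusted p = 0.053, 0.11 and 0.077). In DESeq2 it was at 0.25 (adjusted p = 0.076), and without single libraries at 0.23 to 0.29. With exonic size trends removed, NOTCH2 was at 0.40 and RBPJ at 0.25 (edgeR adjusted p = 3.2e-05 and 0.007), and with span trends removed they were at 0.64 and 0.73. RBPJ changed sign in these and without UVB replicate 3 (0.05), over a leave-one-out range of −0.12 to 0.05. Further pathway genes that fell numbered 14, and 9 with either trend removed. Those that rose numbered 16, and 19 with the span trend or 17 with the exonic size trend removed. Without the span trend, ITCH no longer passed and NUMB and AAK1 were higher, at 0.22 and 0.30. The cause was not tested. All genes called ran from 6718 to 7914.

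Replicate numbers are shared between the groups. Deviations of same-numbered libraries from their group means had r of 0.0072, −0.078 and −0.031. Such values cannot decide whether these libraries were handled as pairs. With the replicate number as a block JAG1 was at 0.25 (edgeR adjusted p = 0.067), and the other 7 genes kept their calls. HES2, HEYL, NRARP and other genes near the floor are limited by depth.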
